A study of Labrus bergylta with 24 samples.

Results

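Soyasaponin was added to a diet that already held a prebiotic, and the hindgut transcriptome of the fish was compared with that of fish given the prebiotic diet without soyasaponin. The animals were ballan wrasse (*Labrus bergylta*), a fish without a stomach that is kept with farmed salmon as a cleaner. The comparison takes 12 of the 24 fish of the series by their diet labels, 6 on the combined diet (0.7% soyasaponin and 0.4% of the commercial prebiotic Aquate SG in the reference diet) and 6 on the prebiotic diet (0.4% prebiotic in the same reference diet). The other fish, 6 given 0.7% soyasaponin without prebiotic and 6 controls on the unsupplemented reference diet, served to ask whether the same transcripts differed with soyasaponin where no prebiotic was fed. All fish ate the reference diet during 4 weeks of acclimatization and the test diets for 5 weeks. Each diet was fed in 2 tanks. Which fish came from which tank is not labelled, so a difference between diets cannot be told apart from one between tanks.

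Soyasaponins are triterpenoid glycosides of soybean that bind membrane cholesterol and can make gut epithelium more permeable, and in Atlantic salmon they are known for their part in the inflammation of the distal intestine on soybean meal. Prebiotics are feed ingredients that the animal does not digest and that are meant to favour certain gut bacteria. The hindgut of fish takes up macromolecules across its epithelium and holds many immune cells. The question put by the comparison is what soyasaponin changes in this tissue when the prebiotic is already present. Transcripts are given by the identifiers of the table, because none of them (0 of 20751) matched a gene name in the RefSeq gene table of assembly fLabBer1.1. The labelled tissue could therefore not be checked against marker genes, and no function is given for any transcript.

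Depth overlapped between the diets. Recovered reads ran from 8.55 to 9.50 M (mega) in combined fish and from 8.63 to 10.6 M in prebiotic fish (exact two-sided permutation p = 0.403, adjusted p = 0.503 over 5 library measures), and 20043 to 20434 transcripts had a read in combined fish, against 20150 to 20386 in prebiotic fish. The libraries differed in the share of the most abundant transcript. One transcript was the most abundant of the table and made up 3.26 ± 0.48% of normalized counts in combined fish and 5.44 ± 1.03% in prebiotic fish (SD, n = 6 each; exact permutation p = 0.00433, adjusted p = 0.0216). It held 3.05 ± 0.86% in soyasaponin fish and 3.35 ± 1.48% in control fish. Its own log2 fold change, -0.87 (SE 0.27), did not pass the threshold over all transcripts (limma adjusted p = 0.0726). The 10 most abundant transcripts together took 10.4 ± 0.61% in combined fish and 12.6 ± 1.52% in prebiotic fish (SD, n = 6 each; exact permutation p = 0.0108, adjusted p = 0.0271). That share includes the most abundant transcript, so it is no separate sign of a difference. The mean difference, combined minus prebiotic fish, was -2.13 percentage points for the 10 together and -2.18 for the most abundant alone. The rest of the share was not tested apart. Normalized counts summed to 9.11 to 9.82 M in combined fish, against 9.94 to 11.3 M in prebiotic fish, with no overlap.

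Prebiotic replicates 4 and 5 had the lowest median correlations of the 24 libraries to the others, 0.853 and 0.839. Next came prebiotic replicate 2 at 0.880 and soyasaponin replicate 4 at 0.895, while combined fish had 0.901 to 0.926 and the other prebiotic fish 0.917 to 0.927. Replicates 4 and 5 were rich in 340 transcripts that follow the first principal component with a correlation above 0.9, which took 6.03% and 5.42% of their normalized counts, against 3.13% in prebiotic replicate 2 and 2.49% in soyasaponin replicate 4. Over the diets the share of this set was 0.113% to 1.83% in combined fish (median 0.194%) and 0.0898% to 6.03% in prebiotic fish (median 1.65%), and the difference was not detected (exact permutation p = 0.197, adjusted p = 0.328). The set had a median log2 fold change of -1.61, which was -0.05 without prebiotic replicates 4 and 5. These fish scored highest of the 24 on the first principal component, so the choice of the set favours a smaller difference without them. None of the set's 340 transcripts passed limma's threshold in the comparison, against 3.81% of all 17056 tested. At an unadjusted p under 0.05 in limma were 13 of the 340, against 3193 of all tested. edgeR called 0 of the 340 and 776 of all tested, and DESeq2 called 16 and 1239. Diet accounted for 12.4% of the squared distances between the 12 libraries (exact permutation p = 0.182 over 924 arrangements).

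With soyasaponin on top of the prebiotic, 465 transcripts rose and 184 fell among the 17056 tested, at an adjusted p under 0.05 in limma. Together these are 3.81% of the transcripts tested, 2.73% higher and 1.08% lower. The log2 fold change of the risen transcripts had a median of 0.68 (quartiles 0.54 and 0.87), and that of the fallen ones a median of -0.62 (quartiles -0.89 and -0.51). Over all transcripts tested the median was -0.04. These measurements are of RNA per tissue sample, in which fewer cells of a type and less RNA per cell cannot be told apart. The split leaned further towards higher transcripts under quantile normalization (641 higher and 98 lower) and in edgeR (633 and 143), and less far in DESeq2 (731 and 508).

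Most of the changes were smaller than 2-fold. Only 75 of the risen and 36 of the fallen transcripts changed by at least 2-fold. Over all transcripts tested, 343 (2.01%) were at least 2-fold higher and 587 (3.44%) at least 2-fold lower, so most differences of that size did not pass the test. Of the 587, 262 belonged to the set that follows the first principal component. Without prebiotic replicates 4 and 5, 386 transcripts were at least 2-fold higher and 350 at least 2-fold lower, 2 of them from that set. Changed transcripts were abundant ones: the risen had a median of 365 and the fallen of 288 normalized counts over the 24 fish, against 138 for all tested. In the top tercile of abundance, above a mean of 272 normalized counts, 4.99% rose and 1.65% fell, and in the bottom tercile, below 67.6, 0.721% rose and 0.457% fell. The median standard error was 0.14 in the top and 0.32 in the bottom tercile. The parts of counting error and of spread between fish in this were not tested.

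**Figure D1:**
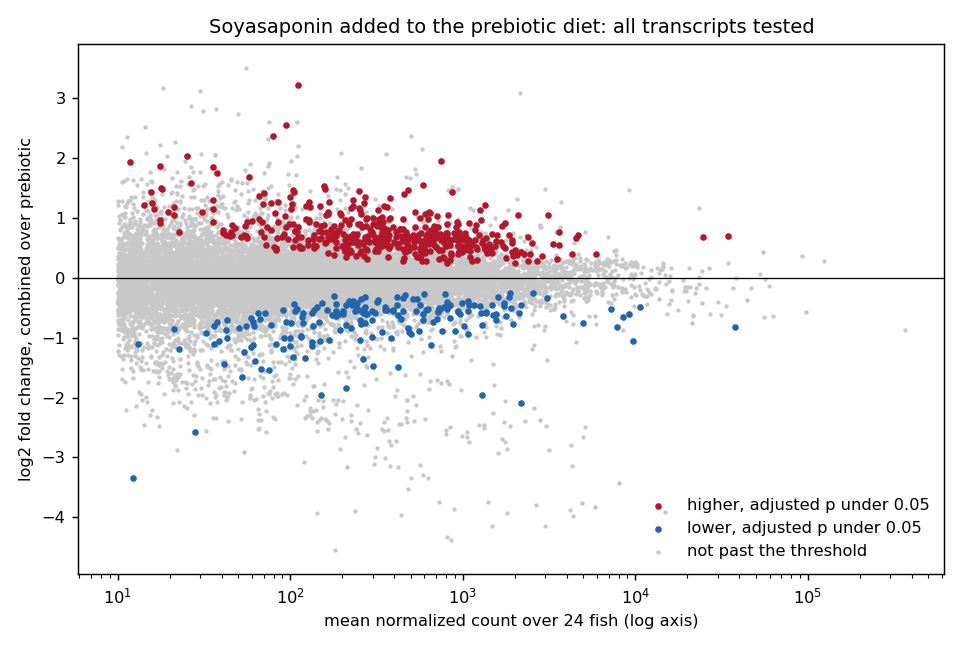
Log2 fold change of combined over prebiotic fish against the mean normalized count over 24 fish (log axis) for the 17056 transcripts tested. Red points are the 465 higher and blue points the 184 lower transcripts with an adjusted p under 0.05, most of them within 2-fold, and grey points did not pass.

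The fish of the compared diets did not overlap in 302 of the 465 risen transcripts, where each combined fish lay above each prebiotic fish. Among the 184 fallen transcripts this held for 76 in the other direction. The transcripts were called on these same fish, so the lack of overlap describes their choice and is no test. Over all transcripts tested, 372 (2.18%) had combined fish above prebiotic fish without overlap and 133 (0.78%) had them below.

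Among the changed transcripts with a mean of at least 50 normalized counts in the 12 fish, LABE_00058622-RA rose most. Its lowest, median and highest normalized counts were 45.5, 137 and 342 in combined fish, against 2.35, 14.3 and 43.6 in prebiotic fish. The diets did not overlap, although the lowest combined fish (replicate 6) and the highest prebiotic fish (replicate 5) lay close together. The log2 fold change was 3.23 (SE 0.63, adjusted p = 0.00766, n = 6 each, limma), and edgeR gave an adjusted p of 0.00946. Behind these values stand 46 to 336 reads in combined fish and 2 to 35 in prebiotic fish. Without prebiotic the same transcript stood at 91.3, 177 and 614 in soyasaponin fish, against 8.09, 20.3 and 40.1 in control fish, with no overlap. That difference was 3.25 on the log2 scale (SE 0.63, adjusted p = 0.0212, limma), and the interaction of both additions was -0.02 (SE 0.89, adjusted p = 0.996).

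LABE_00064073-RA was the next. Its lowest, median and highest normalized counts were 78.1, 169 and 572 in combined fish, against 11.3, 27.7 and 61.7 in prebiotic fish, so that each combined fish exceeded each prebiotic fish. The log2 fold change was 2.56 (SE 0.59, adjusted p = 0.0184, limma) and the adjusted p in edgeR was 0.0116. Combined replicate 2, with 572, was the highest of the 24 fish, and without it the log2 fold change was 2.22 with an adjusted p of 0.0567. In fish without prebiotic the transcript had 18.0, 58.1 and 203 in soyasaponin fish and 4.13, 30.6 and 37.4 in control fish. The groups overlapped there, and that difference, 1.76 (SE 0.59), did not pass the threshold (adjusted p = 0.137, limma). Its interaction was not detected either, at 0.80 (SE 0.84, adjusted p = 0.717).

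LABE_00035077-RA had the largest fall among changed transcripts with the same minimum mean. Transcripts that did not pass the test had larger estimated falls. Its lowest, median and highest normalized counts were 250.3, 375 and 1303 in combined fish, against 1129, 2063 and 3144 in prebiotic fish. Combined replicate 5, at 1303, lay above prebiotic replicate 4, at 1129, and the other combined fish lay below all prebiotic fish. The log2 fold change of -2.09 (SE 0.59) was just past the threshold in limma (adjusted p = 0.0479) and not past it in edgeR (adjusted p = 0.0980). Leaving out a single one of the 12 fish ended the call in 11 of 12 cases, with log2 fold changes from -2.37 to -1.90 and adjusted p up to 0.120. Without prebiotic the transcript stood at 153, 677 and 5797 in soyasaponin fish and at 2496, 3884 and 7142 in control fish. Soyasaponin replicate 1, at 5797, lay within the control range and the other soyasaponin fish lay below it. The difference was -2.52 (SE 0.59, adjusted p = 0.0426, limma) and the interaction 0.43 (SE 0.83, adjusted p = 0.853).

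LABE_00002198-RA also fell. Its lowest, median and highest normalized counts were 434, 598 and 792 in combined fish, against 592, 3156 and 3715 in prebiotic fish. Prebiotic replicate 2, at 592, lay within the range of the combined fish, while the other prebiotic fish, from 1843 up, lay above it. The log2 fold change was -1.96 (SE 0.47, adjusted p = 0.0201, limma), with an adjusted p of 0.0112 in edgeR. The call was lost without combined replicate 2 (adjusted p = 0.0564) and without prebiotic replicates 4 and 5 together (adjusted p = 0.0649). In fish without prebiotic it had 179.7, 374 and 722 in soyasaponin fish, against 329.5, 1297 and 3614 in control fish. These groups overlapped, and their difference, -1.70 (SE 0.47), missed the threshold (adjusted p = 0.0697, limma), with an interaction of -0.26 (SE 0.66, adjusted p = 0.891).

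**Figure D2:**
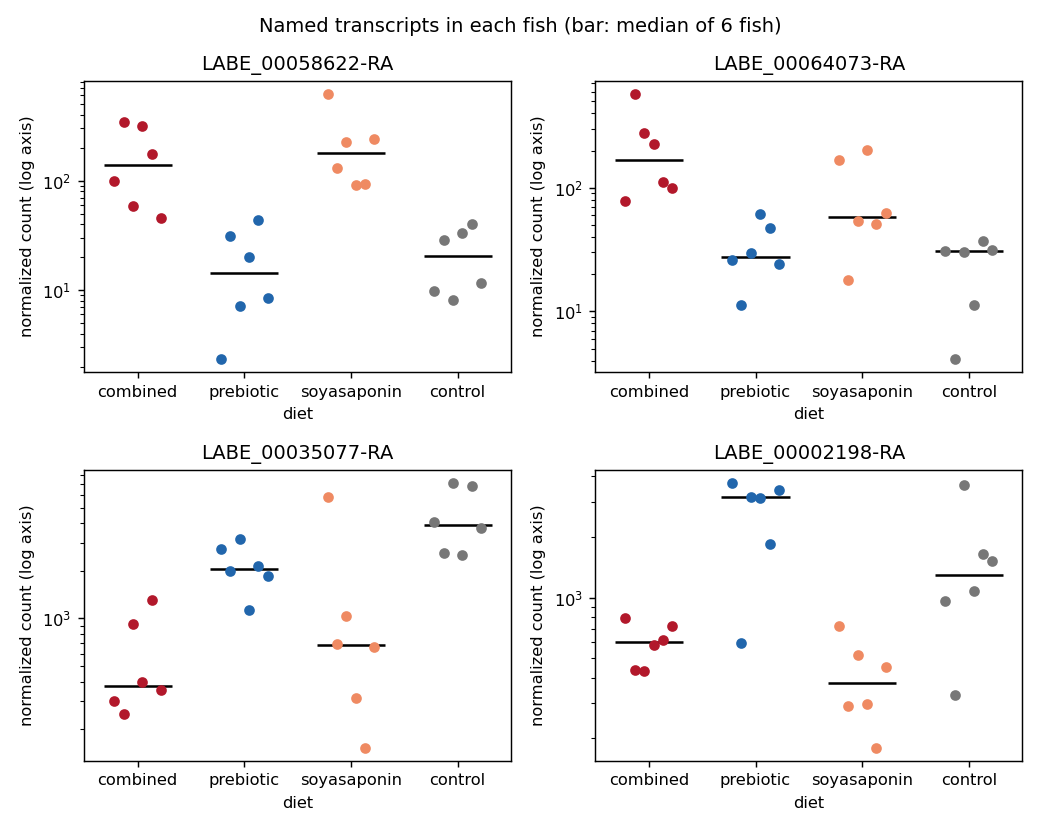
Normalized count (log axis) of each named transcript in every fish, by diet, with a bar at the median of 6 fish. LABE_00058622-RA and LABE_00064073-RA separate combined from prebiotic fish without overlap, for LABE_00035077-RA 1 combined fish reaches into the prebiotic range, and for LABE_00002198-RA 1 prebiotic fish lies within the combined range.

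The levels of the changed transcripts in each fish were summarized as the median, over the set, of the deviation from the mean of the 24 fish on the log2 scale. For combined and prebiotic fish these medians describe the choice of the transcripts and are no test. The 465 risen transcripts stood at 0.22 to 0.56 in combined fish and at -0.51 to -0.17 in prebiotic fish. The highest was combined replicate 2 and the lowest were prebiotic replicates 5 and 4. Soyasaponin fish, whose levels are not in the fold change that chose the transcripts, stood at -0.09 to 0.40 and control fish at -0.36 to 0.32. Their ranges overlapped through control replicate 5, at 0.32, while the other control fish, at -0.10 or less, stood below all soyasaponin fish. As a share of normalized counts, the risen transcripts took 4.36 ± 0.39% in combined, 2.53 ± 0.29% in prebiotic, 3.91 ± 0.54% in soyasaponin and 3.46 ± 0.71% in control fish (SD, n = 6 each).

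The 184 fallen transcripts were summarized in the same way. Their medians were -0.45 to -0.20 in combined fish and 0.28 to 0.42 in prebiotic fish. They were -0.22 to 0.15 in soyasaponin fish and -0.12 to 0.24 in control fish. Each prebiotic fish stood above all fish of the other diets, which the choice of transcripts high in prebiotic fish favours and which is no test. Soyasaponin and control fish overlapped, with soyasaponin replicate 2 at 0.15 and control replicate 4 at 0.24 as the highest of their diets. Their share of normalized counts was 1.65 ± 0.16% in combined, 2.39 ± 0.23% in prebiotic, 1.78 ± 0.16% in soyasaponin and 2.11 ± 0.20% in control fish (SD, n = 6 each).

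**Figure D3:**
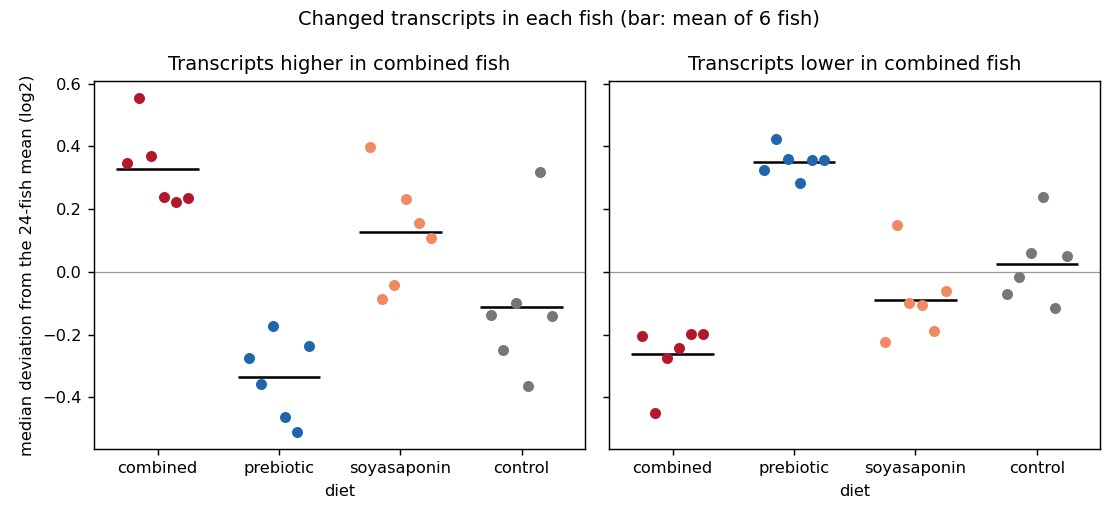
Median log2 deviation of the 465 higher (left) and 184 lower transcripts (right) from their mean over 24 fish, 1 point per fish and a bar at the mean of 6 fish. The separation of combined and prebiotic fish describes the choice of the transcripts and is no test. Soyasaponin and control fish overlap. They entered the choice through the filter and the shared estimate of spread and not through the fold change. For the lower transcripts all prebiotic fish lie above the other diets, which the choice of the transcripts favours.

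The fold change between the 12 fish fed no prebiotic shares no animal with the fold change that chose the transcripts, so the same measure can be read again. These fish did enter the filter on low values and the estimate of spread behind the calls. Of the 465 transcripts that rose with soyasaponin on the prebiotic diet, 417 (89.7%) also had a positive log2 fold change in soyasaponin over control fish, where 52.6% of all transcripts tested did. Their median was 0.25 (quartiles 0.12 and 0.42), against 0.02 over all tested. In the comparison without prebiotic, 169 of the 465 (36.3%) were higher at an unadjusted p under 0.05, against 7.45% of all tested, and 1 was lower. All transcripts were measured in the same fish, and the set medians of soyasaponin and control fish overlapped. These counts are therefore not counts of independent repeats. Both comparisons use the same estimate of spread, and the risen transcripts had a lower median standard error than all tested, 0.15 against 0.20, so the share over all tested is not the value expected with no change. Past limma's adjusted threshold were 7, where 0.276% of all transcripts tested passed as higher. Abundant transcripts leaned towards positive values without prebiotic in general: in the top tercile of abundance 64.3% were positive (median 0.07), while 263 of the 284 risen transcripts there (92.6%) were.

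For the 184 fallen transcripts smaller shares moved the same way in the second reading. A negative log2 fold change in soyasaponin over control fish was found for 124 (67.4%), where 47.4% of all transcripts tested were negative. Their median was -0.11 (quartiles -0.25 and 0.04). At an unadjusted p under 0.05, 32 (17.4%) were lower without prebiotic, against 8.55% of all tested, and 4 were higher. The limit on that share is the same, with a median standard error of 0.16 against 0.20 over all tested. Here too the transcripts come from the same fish and are not independent repeats. Past the adjusted threshold were 3, against 0.709% of all tested. In the top tercile of abundance 35.7% of transcripts were negative without prebiotic, while 65 of the 94 fallen transcripts there (69.1%) were. In the bottom tercile 57.5% were negative, against 17 of the 26 fallen transcripts there (65.4%). Whether the rereading differs between risen and fallen transcripts was not tested. With the calls and the filter taken from the 12 fish compared alone, and the other 12 fish fitted apart, 360 transcripts rose (2.12%) and 133 fell (0.782%) of 17018 (a fit chosen after seeing the data). Without prebiotic, 336 of these 360 (93.3%) were positive, with a median of 0.28, and 90 of the 133 (67.7%) were negative, with a median of -0.09. At an unadjusted p under 0.05, 107 of the 360 were higher and 1 was lower, where 6.92% of all tested were higher, and 21 of the 133 were lower and 2 were higher, where 8.45% of all tested were lower. The median standard error without prebiotic was then 0.17 for the risen and 0.20 for the fallen transcripts, against 0.19 over all tested. The fold changes on the prebiotic diet chose the transcripts and are for that reason overestimated relative to the ones without prebiotic, so the gap between the medians is no measure of an effect of the prebiotic.

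**Figure D4:**
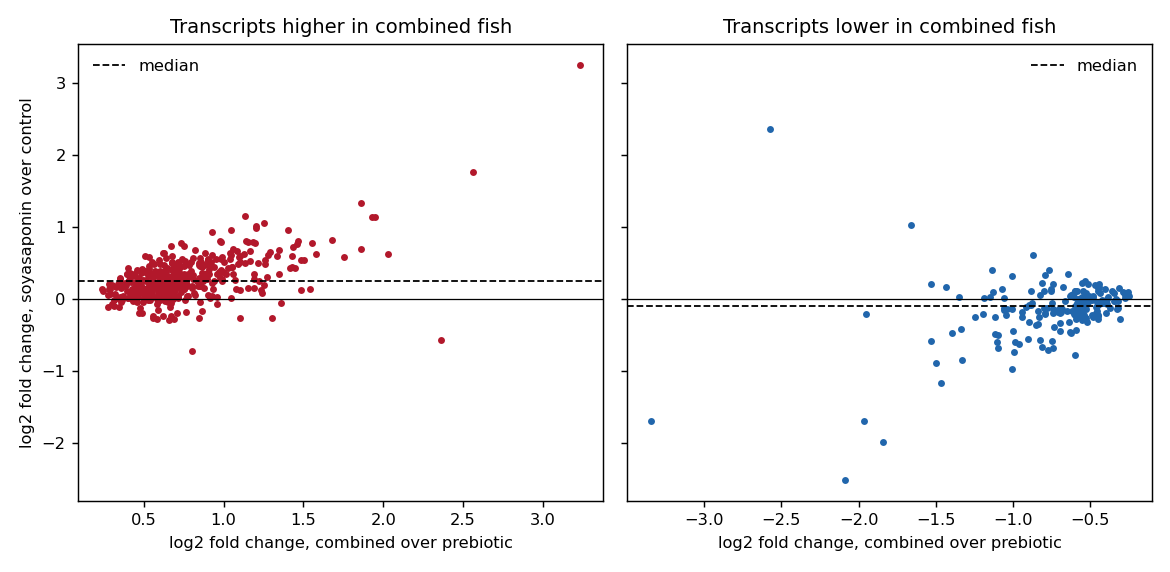
Log2 fold change of soyasaponin over control fish (vertical) against that of combined over prebiotic fish (horizontal) for the 465 higher (left) and 184 lower transcripts (right), which were chosen on the horizontal value. The dashed median lies at 0.25 on the left and at -0.11 on the right.

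Whether the effect of soyasaponin depended on the prebiotic was tested directly by the interaction, the difference on the prebiotic diet minus the difference without it. No transcript (0 of 17056, 0%) passed in limma, where the smallest adjusted p was 0.128 and 2174 (12.7%) had an unadjusted p under 0.05. edgeR called 0 and DESeq2 94. Among the transcripts changed on the prebiotic diet, the smallest adjusted p for the interaction was 0.128 for those that rose and 0.180 for those that fell. By limma and edgeR, a transcript that passed with prebiotic and not without it is therefore not shown to respond differently. The 94 calls of DESeq2 were made by neither of these tools.

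The count of changed transcripts rested on several fish. It was 266 without combined replicate 2, 348 without combined replicate 3, and 420, 386 and 424 without prebiotic replicates 2, 4 and 5. Without prebiotic replicates 4 and 5 together it was 298, with 160 higher and 138 lower, and 211 of the 649 were among them. The direction held for all 649 in each of the 39 alternatives in which they were tested. The alternatives reuse the same fish and the transcripts were chosen on their fold change, so the choice favours a kept direction. Over all 17056 transcripts tested, 13594 kept their direction without prebiotic replicates 4 and 5. Without both fish the medians stood at 0.60 for the risen and -0.66 for the fallen transcripts. A core of 197 risen and 37 fallen transcripts passed when any single one of the 12 fish was left out, LABE_00058622-RA among them. Both count tools called 461 of the 465 risen and 127 of the 184 fallen transcripts at an adjusted p under 0.05. Over all 17056 transcripts tested, both called 758. The count tools used reads of the same fish, so this overlap is favoured by the choice and is no separate support.

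**Figure D5:**
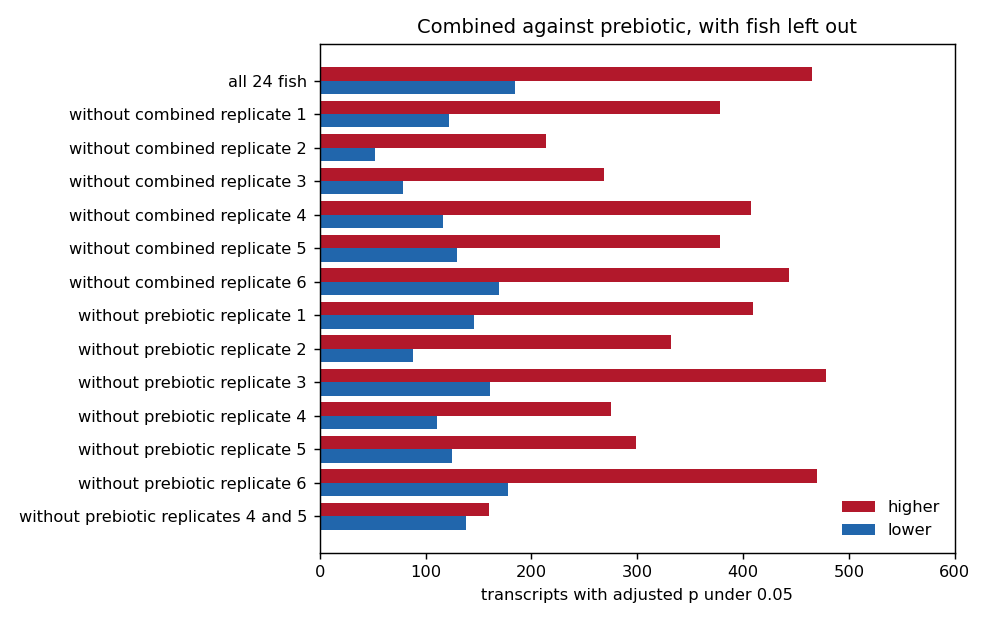
Number of transcripts higher (red) and lower (blue) in combined against prebiotic fish at an adjusted p under 0.05, with all 24 fish and with the named fish left out. The 465 higher and 184 lower transcripts become 214 and 52 without combined replicate 2, and 160 and 138 without prebiotic replicates 4 and 5.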

How the data were processed

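The authors deposited a table of 20751 transcript features in 24 fish. The authors' values are a signal, transcript counts that were divided by 1 size factor per library before they were deposited, as read from the values themselves. The tools named in the submitters' processing notes are cutadapt, TopHat2, featureCounts (Subread) and DESeq2. Neither tool versions nor the genome build is given in the sources used here. Each column was a whole multiple of its smallest value above 0 in 100% of values (tolerance 1e-06), so whole reads, 8.42 to 12.5 M (mega) per library, could be recovered. Chi-square per degree of freedom between fish of the same diet, combined or prebiotic, was 16.2 to 76.9, above counting noise for every pair, and none was merged.

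The analysis used log2(normalized count + 1) of the 17056 transcripts with a mean of at least 10, which understates changes of rare ones; 3695 were left out. limma 3.58.1 (R 4.3.3) with an intensity trend was fitted to all 4 diets, two-sided, with Benjamini-Hochberg adjustment over all transcripts tested. Library measures had exact permutation tests (smallest possible p 0.00216). The transcripts named are the 2 with the largest rise and the 2 with the largest fall among those changed, with a mean of at least 50 in the 12 fish. Alternatives were other pseudocounts, filters, scalings and weights, edgeR 4.0.16 and DESeq2 1.42.0 on recovered reads, covariates, a block, and leaving out fish. In this comparison 674 transcripts had no adjusted p from DESeq2 and stayed out of its counts. Replicates were numbered in record order. The comparison, rules and alternatives were chosen with earlier results of these data known, and the size factor covariate and the separate fits of the 2 pairs of diets were added after seeing the data. Lists of marker genes could not be applied without gene names. Plots were drawn with matplotlib 3.10.9.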

Additional observations from a re-analysis of the deposited data

Results flagged for a closer look

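A single fish stood far from the other fish of its diet in 4 of the 34 groups of 6 fish examined, which covered library measures, the named transcripts and the medians of the changed sets. Chance gives about 1 such group in 20 where values are normally distributed. The named transcripts were examined here as normalized counts and not on the log2 scale, so that rate need not hold for them. LABE_00058622-RA had 614 normalized counts in soyasaponin replicate 1, with a median of 177 on that diet. The same fish had 5797 normalized counts of LABE_00035077-RA, where the median of the soyasaponin fish was 677. Combined replicate 2 had the lowest median deviation of the transcripts lower in combined fish, -0.45, with a median of -0.22 on that diet. Prebiotic replicate 2 had the most transcripts with a read among prebiotic fish, 20386, with a median of 20208.5. It also had the most recovered reads of that diet, 10.6 M, with a median of 9.04 M. The part of depth in this was not tested. Whether RNA quality or cell makeup of these samples differed was not tested.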

How the results depend on the processing

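The 649 transcripts changed in combined against prebiotic fish became 1239 in DESeq2, 338 with the log2 size factor as covariate (266 higher and 72 lower; chosen after seeing the data) and 298 without prebiotic replicates 4 and 5, and 266 to 781 when each of the 24 fish was left out in turn; the other 12 alternatives stayed within 1.5 times the count. The 0 transcripts of the interaction became 94 in DESeq2 and 0 to 1 when fish were left out (1 without prebiotic replicate 2), and stayed at 0 in the other 13. Of the changed transcripts, 83.4% had the same sign without prebiotic, against 86.9% without prebiotic replicates 4 and 5 and 86.4% with the 2 pairs of diets fitted apart (chosen after seeing the data). LABE_00058622-RA kept its call in all 39 alternatives. LABE_00035077-RA lost its call in 19 of 24 omissions of a fish and in 7 of 15 other alternatives, with adjusted p up to 0.120. The cause of these shifts was not tested. The part of depth in the wider error of rare transcripts was not tested. The fish of each diet were divided by label number into 2 runs, the 3 lowest and the 3 highest numbers. In soyasaponin fish no single widest gap in the numbers marks that division. A random block over these runs had a correlation of -0.04 and gave 917 transcripts. The runs lie within diets and are not labelled as tanks. The higher count therefore does not show that the calls hold once tanks are allowed for. No paired analysis was possible because fish of different diets share no numbers in the labels. The p-values of the main fit set a difference between diets against the spread between fish. That spread was estimated for each transcript over all 4 diets together. With 6 fish and 2 tanks per diet, some fish of a diet shared a tank. Tanks are not labelled, so the p-values do not account for them.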

Other observations

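Over all transcripts tested, the median variation among fish of a diet was highest in prebiotic fish. A difference in spread between the diets was not tested. The median standard deviation of a transcript within a diet was 0.29 in combined and 0.38 in prebiotic fish, and 0.33 in soyasaponin and 0.31 in control fish (log2 units, 17056 transcripts, n = 6 fish each). For the 465 transcripts higher in combined fish it was 0.23 in combined and 0.24 in prebiotic fish, and for the 184 lower ones 0.24 in combined and 0.27 in prebiotic fish. These sets had passed a test that selects for low spread. The part of prebiotic replicates 4 and 5 in the spread was not tested.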
